A study of Mus musculus with 8 samples.

Results

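The matrix metalloproteinases Mmp2, Mmp3, Mmp9, Mmp11, Mmp13, Mmp14, Mmp16 and Mmp19 and the inhibitors Timp1 and Timp2 were examined in knee joints of mice by poly-A RNA sequencing. They were taken from the deposited table by gene name and make up 10 of its 20681 rows, and all 10 passed the filter on low values (10 or more normalised reads in 4 or more of the 8 libraries), as did 14949 genes in all. The 8 joints came from Acan-Cre;Loxl2 fl/fl mice, in which the aggrecan gene of cartilage cells drives Cre and loxP sites flank Loxl2, the gene of a collagen-crosslinking enzyme. Both groups carry these alleles. The 4 control joints were vehicle-treated and have library names with Vehicle, DMM and LOXL2wt, and the 4 joints labelled knockout have names with KO, DMM and LOXL2ko. DMM, which both groups share, is not spelled out in the labels and is a common short form for surgical destabilisation of the meniscus. The agent given to the knockout animals, the time after surgery, the age and the sex are not given in the sources used here, so any such agent is part of the contrast. A whole joint holds cartilage, bone, marrow, synovium, ligament and muscle, while the Cre driver acts in cells that express aggrecan.

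Matrix metalloproteinases are zinc enzymes that cut collagens, proteoglycans and other matrix proteins. Most are secreted as inactive proenzymes in which a cysteine of the propeptide blocks the zinc, and they are switched on when that propeptide is removed. TIMPs are small secreted proteins that bind the active site and block it, and TIMP2 also takes part in the activation of pro-MMP2 by MMP14 at the cell surface. In joints, collagenase activity is best known from growth plate remodelling, bone resorption and the loss of cartilage collagen in osteoarthritis. Transcript levels, which were measured here, do not show how much enzyme was active.

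Values below are normalised read counts, the reads of a gene divided by the size factor of its library, and means are given ± SD over 4 libraries per group. Log2 differences of a gene are taken between group means of log2(value + 1). They are therefore not the log2 of the ratio of the printed means, and were larger than it for genes such as Mmp9 (ratio of means 4.28, log2 difference 2.82). Libraries held 13991000 to 17411617 reads assigned to genes. The labels do not say that each library came from a separate animal, so p-values measure the spread between these libraries. The targeted gene went against its label, with 282, 349, 1135 and 311 normalised reads of Loxl2 in the controls and 893, 1468, 960 and 1518 in the libraries labelled knockout, each in the order of replicates 1 to 4 as in all such lists here (log2 difference 1.44, SE 0.40, limma adjusted p = 0.0294, exact permutation p = 0.0857). Control replicate 3 lay within the range of the libraries labelled knockout. Of 5 lysyl oxidase genes, Loxl2 among them, limma called 4 higher (2 to 4 when 1 library was left out) and edgeR and DESeq2 3 each. At an adjusted p under 0.05 limma called 11.6% of all tested genes higher and 11.6% lower, to be set beside this and every list count below. The log2 differences were 2.03 for Lox, 1.26 for Loxl1 and 1.03 for Loxl3, all called by limma, and 0.89 for Loxl4, not called. Groups are therefore called by their labels. Whether the labels, the deletion or neither depart from the description cannot be told apart in a whole joint, where the Cre driver does not act in every cell. Defining markers of the joint were present, among them Col2a1 (means of 1045 and 1165 in controls and libraries labelled knockout) and Acan (221 and 286), and none of the marker genes in the table was at 0 in all libraries.

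The 10 transcripts were higher on average in the libraries labelled knockout, each with a log2 difference above 0, against 50.1% of all genes tested. The 10 were chosen with earlier results of these data known, so their shared direction and the counts and median below describe them only. Of them 6 rose by limma at an adjusted p under 0.05, where 23.2% of the genes tested were called, 11.6% higher and 11.6% lower: the collagenase Mmp13, the membrane-anchored Mmp14, the gelatinases Mmp9 and Mmp2, and both inhibitors. Mmp3, Mmp11, Mmp16 and Mmp19 did not pass. The groups did not overlap for 3 of the 10, namely Mmp13, Mmp14 and Timp1, against 11.7% of the genes tested that were higher and 13.4% that were lower without overlap. The median log2 difference of the 10 was 1.61, beside 0.00 for all genes tested. Their number called was 5 by edgeR (11.3% of genes called higher) and 5 by DESeq2 (14.3%), both without Mmp9. It was 7 without control replicate 3, 8 without knockout replicate 3, 4 without control replicate 2, control replicate 4 or knockout replicate 4, and 0 with a skeletal muscle score as covariate, where 0 of the 10 had an unadjusted p under 0.05 and 0 genes were called in the whole table. The groups accounted for 85.9% of that score's variance. With the covariate the log2 differences were 2.41 for Mmp13, 2.38 for Timp1, 1.84 for Mmp14 and 1.74 for Mmp9, but 0.67 for Mmp16, 0.36 for Mmp2, 0.29 for Mmp19, 0.22 for Mmp3, 0.10 for Timp2 and -0.33 for Mmp11. All 10 had a limma adjusted p of 0.997 or 0.998 there. The split of calls depended on scaling, since 50% of called genes were higher under the deposited size factors and 77.7% when libraries were scaled without muscle, erythroid, neutrophil and the 50 highest genes, a scaling that moved the median of all genes to 0.15. The same 6 of the 10 were called under it.

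**Figure D1:**
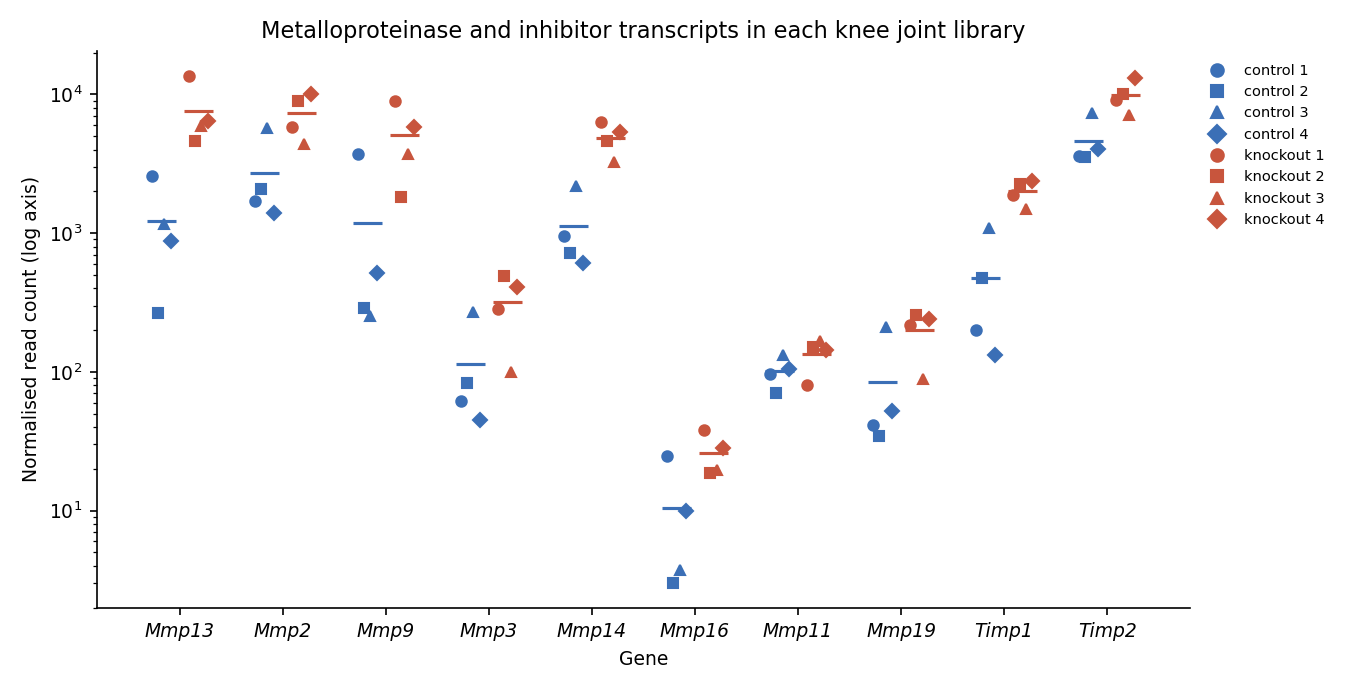
Normalised read count (log axis) of the 10 genes in each of the 8 libraries, with a horizontal bar at the mean of each group. Mmp13, Mmp14 and Timp1 show no overlap between the groups, and control replicate 3 lies within the range of the libraries labelled knockout for Mmp2, Mmp3, Mmp19 and Timp2.

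Mmp13 encodes the collagenase that cuts type II collagen of cartilage and is made by hypertrophic chondrocytes and osteoblasts. It lies at chr9:7272514-7283331 on the plus strand (mm10), and its upstream sequence is shown because it carries, close to the start, short motifs for which collagenase promoters are known. The 150 bases before the start (chr9:7272364-7272513, RefSeq, GRCm38.p6, plus strand) and the 100 bases before the start of Mmp3 (chr9:7445722-7445821, plus strand), Mmp14 (chr14:54431498-54431597, plus strand), Timp1 (chrX:20870066-20870165, plus strand) and Timp2 (chr11:118355412-118355511, minus strand) read as follows, with matches to the motifs searched in capitals.
Mmp13: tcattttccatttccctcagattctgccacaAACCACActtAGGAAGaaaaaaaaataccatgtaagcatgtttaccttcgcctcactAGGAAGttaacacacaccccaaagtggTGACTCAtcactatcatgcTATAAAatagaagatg
Mmp3: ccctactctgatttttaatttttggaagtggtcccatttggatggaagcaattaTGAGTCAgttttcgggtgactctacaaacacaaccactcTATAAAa
Mmp14: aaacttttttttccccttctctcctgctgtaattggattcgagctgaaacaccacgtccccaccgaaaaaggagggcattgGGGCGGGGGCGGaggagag
Timp1: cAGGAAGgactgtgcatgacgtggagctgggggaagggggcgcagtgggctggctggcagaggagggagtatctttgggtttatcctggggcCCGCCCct
Timp2: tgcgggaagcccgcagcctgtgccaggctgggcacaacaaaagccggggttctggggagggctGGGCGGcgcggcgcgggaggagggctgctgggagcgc

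The motifs searched, on both strands, were the AP-1 site TGACTCA, the RUNX site AACCACA, the PEA3 site AGGAAG, the TATA box TATAAA and the GC box GGGCGG. RefSeq windows from 250 bases before to 50 after the start were at hand for 6 of the 10 genes, the 5 above and Mmp11, and not for Mmp2, Mmp9, Mmp16 and Mmp19. The starts of Timp2 and Mmp11 there lie inside the genes as GENCODE places them (chr11:118301069-118355740 and chr10:75923222-75936496, minus strand). Their stretches are thus upstream of the RefSeq start only. Mmp13 had an AP-1 match 35 bases and a RUNX match 119 bases before the start, and Mmp3 an AP-1 match 46 bases before it. AP-1 letters stood in 5.20% and RUNX letters in 5.27% of the 32851 windows of that length. Mmp13 and Mmp3 also held the letters of a TATA box, found in 13.6% of windows. These began 16 and 7 bases before the start, and all distances here are to the RefSeq start. Mmp11, Mmp14, Timp1 and Timp2 held a GC box, found in 35.7%. PEA3 letters stood in Mmp3, Mmp13, Mmp14 and Timp1 and in 35.4% of windows. Such matches describe letters only. The genes that rose included both kinds of letters near the RefSeq start, since Mmp13 has AP-1 and TATA letters and Mmp14, Timp1 and Timp2 have GC boxes. So did those that did not pass, since Mmp3 has AP-1 and TATA letters and Mmp11 has GC boxes.

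Mmp13 had 2569, 266, 1169 and 876 normalised reads in the controls and 13541, 4636, 5956 and 6448 in the libraries labelled knockout. The lowest library labelled knockout lay above the highest control, and both groups were widely spread, with control replicate 2 lowest and knockout replicate 1 highest of all. The means were 1220 ± 975 and 7645 ± 4004. The log2 difference was 2.93 (SE 0.59, limma adjusted p = 0.00993, exact permutation p = 0.0286, two-sided, the smallest that 4 against 4 can give). The difference ran from 2.34 without control replicate 2 to 3.43 without control replicate 1, and the call was kept in all 8 leave-one-out fits, each made without 1 library.

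Mmp13 stands at one end of a group of metalloproteinase genes on chromosome 9, in which Mmp12 and Mmp3 follow, then Mmp8 and Mmp27. Mmp12, the macrophage elastase, is the nearest of them to Mmp13 and had 13.0, 11.1, 20.6 and 15.3 normalised reads in the controls and 81.8, 274, 293 and 60.7 in the libraries labelled knockout. It rose by 3.19 (SE 0.50, limma adjusted p = 0.00501), without overlap, although its exons overlap those of Mmp1b on the opposite strand and the use of strand in counting is not stated. Mmp8, the neutrophil collagenase, had 24.3 ± 17.6 and 14.6 ± 8.16 (difference -0.61, SE 0.55, limma adjusted p = 0.446). Mmp27 was too low to test, with at most 6.54 normalised reads. Of the 4 tested genes of this region limma thus called 2, Mmp12 and Mmp13.

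The gelatinases cut denatured collagen and the type IV collagen of basement membranes. Mmp2 (chr8:92827291-92853420) had 1700, 2077, 5742 and 1399 normalised reads in the controls and 5805, 8963, 4398 and 10123 in the libraries labelled knockout. The groups overlapped through control replicate 3, which lay above knockout replicate 3 and close to knockout replicate 1. Mmp2 rose from 2730 ± 2027 to 7322 ± 2670, a log2 difference of 1.59 (SE 0.42, limma adjusted p = 0.0245, exact permutation p = 0.0571). Its call was lost without control replicate 1, 2 or 4 (limma adjusted p = 0.0552, 0.0641 and 0.0633) or knockout replicate 2 or 4 (0.0637 and 0.0738), and without control replicate 3 the difference was 2.03 (0.0033).

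Mmp9 (chr2:164940780-164955850), the gelatinase found in osteoclasts and in neutrophil granules, had 3699, 289, 254 and 519 normalised reads in the controls. In the libraries labelled knockout it had 8949, 1831, 3738 and 5849. Control replicate 1 held more than all the other controls together and above knockout replicate 2, so the groups overlapped. The means were 1190 ± 1677 and 5092 ± 3050. The log2 difference was 2.82 (SE 0.79, limma adjusted p = 0.0302, exact permutation p = 0.0571). That call was not given by edgeR (log2 difference 2.09, adjusted p = 0.109) or DESeq2 (2.1, adjusted p = 0.104). It was also lost without control replicate 2, 3 or 4 (limma adjusted p = 0.085, 0.0618 and 0.0693) or knockout replicate 1 or 4 (0.0751 and 0.0829), while without control replicate 1 the difference was 3.69 (0.00758).

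Markers of cells known for Mmp9 were read beside it. Of 8 osteoclast markers 7 were called higher by limma and 4 each by edgeR and DESeq2, and their summed normalised count was 11101, 1781, 2567 and 1777 in the controls and 31639, 9007, 14534 and 24109 in the libraries labelled knockout. Control replicate 1 was the highest control and exceeded knockout replicate 2 in that sum as it did in Mmp9. Of 10 neutrophil markers 8 were tested and limma called 0, with 1 lower at an unadjusted p under 0.05 and 0 by edgeR or DESeq2, and their sum ranged from 1407 to 5698 in the controls and from 1120 to 2736 in the libraries labelled knockout. The osteoclast count was 2 without control replicate 2, knockout replicate 1 or knockout replicate 4 and 3 without control replicate 4. A change in the number of cells of a type and a change in RNA per cell cannot be told apart in such samples, and the part of osteoclasts in the Mmp9 difference was not tested.

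**Figure D2:**
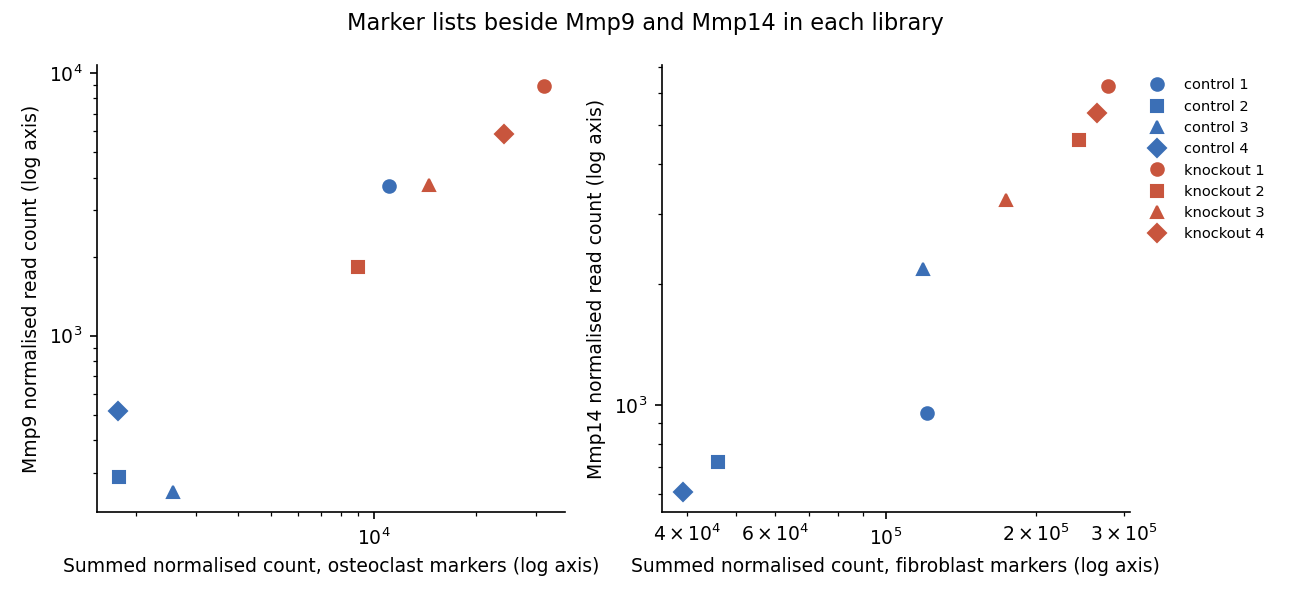
Left, Mmp9 against the summed normalised count of 8 osteoclast markers, and right, Mmp14 against that of 10 fibroblast markers, 1 point per library and log axes throughout. Control replicate 1 lies among the libraries labelled knockout on the left, with 3699 reads of Mmp9, while on the right each control lies below each library labelled knockout.

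Mmp3, the stromelysin that cuts proteoglycans and activates other proenzymes, lies at chr9:7445822-7455975. It had 61.6, 82.8, 269 and 44.9 normalised reads in the controls and 286, 493, 100 and 406 in the libraries labelled knockout. Control replicate 3 and knockout replicate 3 each lay nearer to the other group than to most of their own. The log2 difference of 1.62 (SE 0.60) did not pass (limma adjusted p = 0.0753, exact permutation p = 0.0571). It passed without control replicate 3 (2.15, limma adjusted p = 0.0162) or without knockout replicate 3 (2.10, 0.0221).

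Among membrane-anchored enzymes, Mmp14 (chr14:54431612-54445364) encodes the surface collagenase that activates pro-MMP2. It had 951, 720, 2187 and 605 normalised reads in the controls and 6273, 4581, 3252 and 5370 in the libraries labelled knockout, with no overlap even through control replicate 3. The means were 1116 ± 729 and 4869 ± 1281. The log2 difference was 2.28 (SE 0.36, limma adjusted p = 0.00511, exact permutation p = 0.0286), with the smallest limma p among the 10. The call was kept in all 8 leave-one-out fits, with differences of 2.05 to 2.67. Of 10 fibroblast markers 9 were called higher beside it, and their summed count was 39271 to 120915 in the controls and 173777 to 278933 in the libraries labelled knockout. The fibroblast count was 5 without knockout replicate 4. The part of fibroblasts in the Mmp14 difference was not tested.

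Mmp16 (chr4:17852893-18119145), a further membrane type, was the least abundant of the 10 and is known from only 3 to 38 reads per library. Its normalised reads were 24.9, 3.03, 3.74 and 9.86 in the controls and 37.9, 18.8, 19.6 and 28.2 in the libraries labelled knockout, so control replicate 1 overlapped the other group. The log2 difference of 1.61 (SE 0.58, limma adjusted p = 0.0707) did not pass, fell to 0.91 at a pseudocount of 10, and passed without control replicate 1 (2.14, limma adjusted p = 0.0182).

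Mmp11 (chr10:75923222-75936496) differs from most secreted relatives in that furin removes its propeptide inside the cell. It had 96.3, 70.7, 133 and 105 normalised reads in the controls and 79.8, 151, 166 and 143 in the libraries labelled knockout, with the smallest difference of the 10 (log2 0.40, SE 0.26, limma adjusted p = 0.295). Knockout replicate 1 was below 3 of the controls. Its exons overlap Chchd10 on the opposite strand, so its reads are uncertain where strand was not used. Mmp19 (chr10:128790910-128800824), an enzyme known from inflamed synovium, had 41.1, 34.3, 212 and 52.6 against 218, 256, 88.1 and 240. Control replicate 3 and knockout replicate 3 again crossed. Its log2 difference of 1.54 (SE 0.55) did not pass (limma adjusted p = 0.0684) and passed without control replicate 3 (2.12, limma adjusted p = 0.00602) or knockout replicate 3 (1.89, 0.0344). Tmem198b and Gm47093 overlap its exons on the opposite strand.

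**Figure D3:**
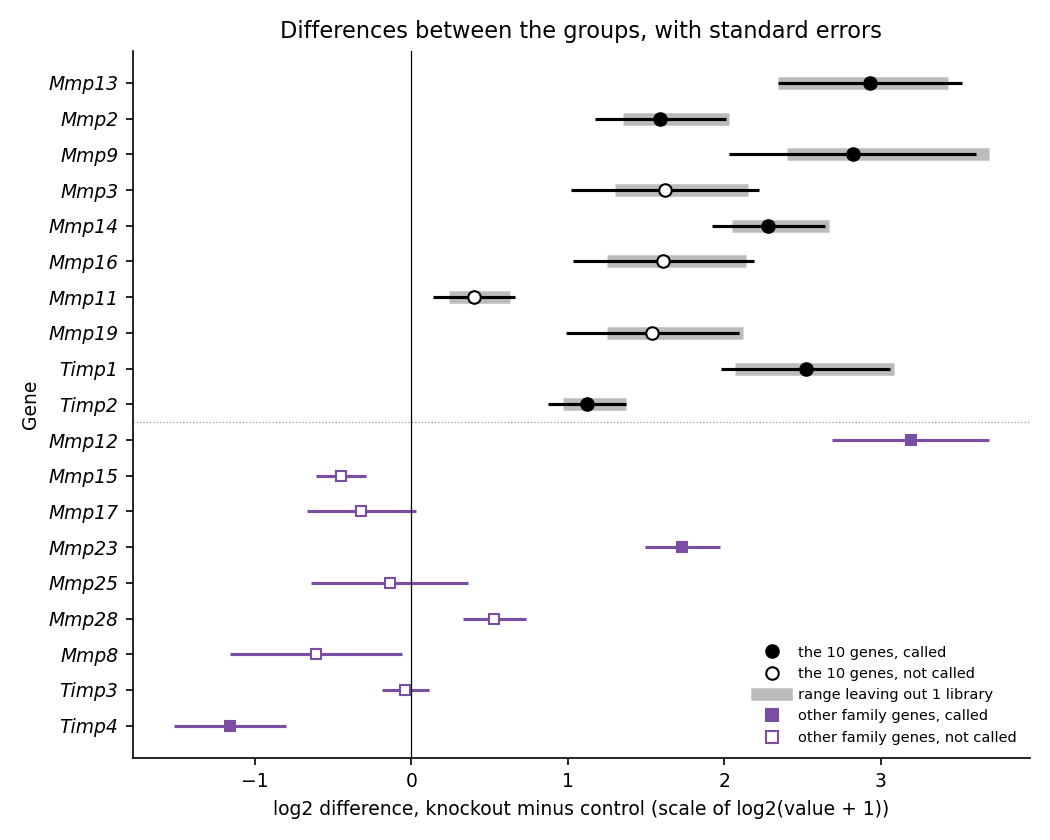
Log2 difference (libraries labelled knockout minus control, on the scale of log2(value + 1)) with its standard error for the 10 genes (circles) and the other tested family genes (squares), filled where called by limma, with grey bars for the range of the 10 when 1 library was left out. The 10 lie between 0.40 and 2.93, while Mmp12 and Mmp23 are called higher and Timp4 lower among the rest.

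Timp1 (chrX:20870166-20874735), an inhibitor of most secreted metalloproteinases, lies within an intron of Syn1 on the opposite strand. It had 201, 473, 1087 and 133 normalised reads in the controls and 1875, 2250, 1497 and 2387 in the libraries labelled knockout. The controls were spread widely and the libraries labelled knockout closely, without overlap. Timp1 rose from 474 ± 435 to 2002 ± 400, a log2 difference of 2.52 (SE 0.54, limma adjusted p = 0.0121, exact permutation p = 0.0286), and stayed called in all 8 leave-one-out fits (2.07 to 3.08).

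Timp2 (chr11:118301069-118355740), the inhibitor that also bridges MMP14 and pro-MMP2, had the highest mean of normalised reads among the 10 in both groups. It had 3572, 3552, 7312 and 4068 in the controls and 9092, 9977, 7118 and 13157 in the libraries labelled knockout. In single libraries Mmp9 exceeded Timp2 in control replicate 1 (3699) and Mmp13 exceeded Timp2 in knockout replicate 1 (13541). Control replicate 3 was just above knockout replicate 3, and the other controls were below all libraries labelled knockout. Timp2 had means of 4626 ± 1806 and 9836 ± 2516. Its log2 difference was 1.12 (SE 0.25, limma adjusted p = 0.0138, exact permutation p = 0.0571), and the call was kept in all 8 leave-one-out fits (0.97 to 1.37).

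The other TIMPs, Timp3 and Timp4, were not called higher. Timp3, which is held in the matrix, had 1014 ± 144 normalised reads in the controls and 994 ± 185 in the libraries labelled knockout (difference -0.04, SE 0.15, limma adjusted p = 0.883). The sign of its difference turned with scaling, to 0.06 under quantile normalisation and 0.11 when libraries were scaled without muscle and other abundant genes. Timp4, known from striated muscle and fat, had 611, 675, 531 and 607 in the controls and 162, 174, 622 and 300 in the libraries labelled knockout. It fell by 1.16 (SE 0.36, limma adjusted p = 0.0434), a call also given by DESeq2 (adjusted p = 0.0343) but not by edgeR (adjusted p = 0.0963). The limma call was lost under quantile normalisation (limma adjusted p = 0.0545) and when scaled without muscle and other abundant genes (0.0656). It was also lost in 7 of the 8 leave-one-out fits (limma adjusted p = 0.0568 to 0.106), the exception being that without knockout replicate 3. Of 12 skeletal muscle markers 6 were called lower by limma (9 without knockout replicate 3) and 11 each by edgeR and DESeq2, and their sum was 1946189 to 2067546 in the controls and 944200 to 1366510 in the libraries labelled knockout. Their part in the Timp4 difference was not tested. Exons of Timp3 and Timp4 overlap Syn3 and Syn2 on the opposite strand.

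Ratios within a library do not depend on how libraries were scaled, and 6 pairs were compared by exact permutation with adjustment over the pairs. The log2 ratio of Mmp14 to Timp2 was -1.91, -2.30, -1.74 and -2.75 in the controls and -0.54, -1.12, -1.13 and -1.29 in the libraries labelled knockout, a difference of 1.15 without overlap (exact permutation p = 0.0286, adjusted 0.0857). Each library labelled knockout thus had more Mmp14 per Timp2 than any control, though the adjusted p did not pass. With 4 libraries a group, any pair could pass only if at least 4 of the 6 reached the smallest exact p, so a miss here says little. The log2 ratio of Timp1 to Timp2 was -4.14, -2.90, -2.75 and -4.93 in the controls and -2.28, -2.15, -2.25 and -2.46 in the libraries labelled knockout, a difference of 1.40, again without overlap (exact permutation p = 0.0286, adjusted 0.0857). Its spread was 1.04 (SD) in the controls and 0.13 in the libraries labelled knockout.

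The other 4 ratios overlapped. Mmp2 to Timp2 differed by 0.46 (exact permutation p = 0.1429) and Mmp3 to Timp1 by -0.90 (exact permutation p = 0.0571, adjusted 0.1143). For Mmp9 to Timp1 the log2 ratio ranged from -2.09 to 4.19 in the controls and from -0.30 to 2.25 in the libraries labelled knockout (difference 0.30, exact permutation p = 0.8571). Mmp13 to Timp1 ranged from -0.83 to 3.67 and from 1.04 to 2.85 (difference 0.41, exact permutation p = 0.7143). These differences are small beside the control SDs of 2.80 and 2.12. Their sign turned without single libraries, with -0.67 for Mmp9 to Timp1 without control replicate 3, -0.21 without control replicate 2 and -0.07 without knockout replicate 1, and -0.33 and -0.02 for Mmp13 to Timp1 without control replicates 2 and 3. For both pairs the largest difference was that without control replicate 1 (1.42 and 1.16).

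**Figure D4:**
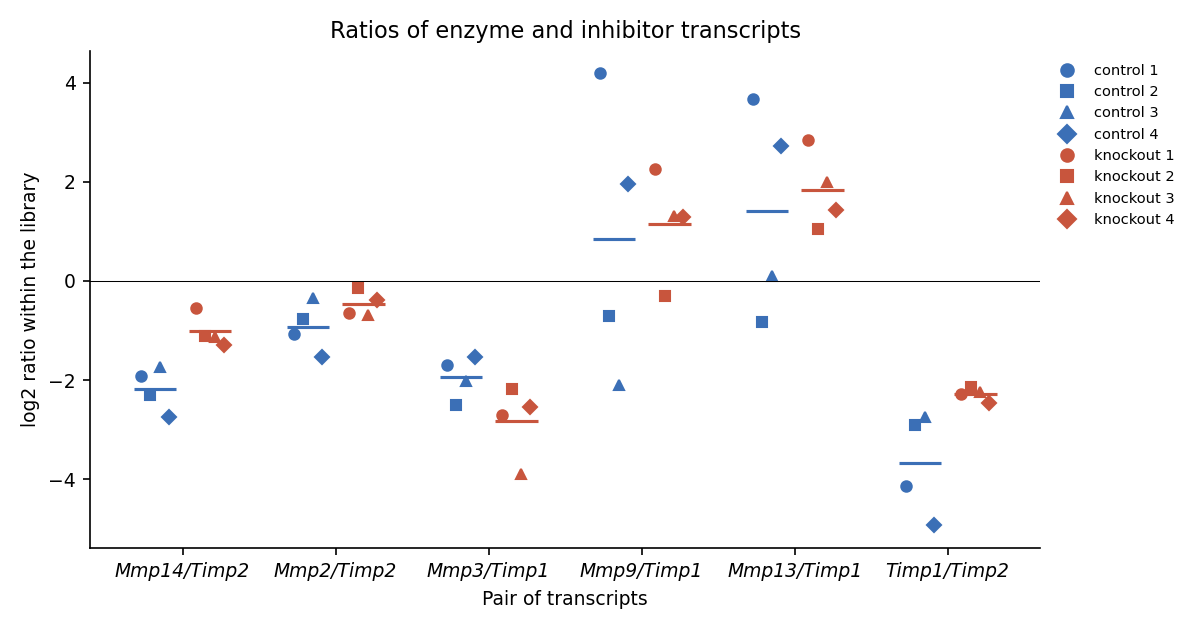
Log2 ratio of normalised read counts of 2 transcripts within each library, with a bar at the mean of each group. Mmp14/Timp2 and Timp1/Timp2 show no overlap between the groups (differences of 1.15 and 1.40), while the controls of Mmp9/Timp1 span the range of the libraries labelled knockout.

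Per kilobase of exon, which allows levels to be set beside each other, Timp2 was the highest of the 10 in the controls (1187 ± 464 normalised reads per kb), followed by Mmp2 (810 ± 601), Timp1 (533 ± 490), Mmp13 (456 ± 365), Mmp9 (336 ± 474) and Mmp14 (187 ± 122). Neighbours in this order differed by less than the larger of their SDs. Lengths count all annotated exons of a gene merged. Genes with exons not used in these joints therefore read too low, here and in the shares below. In the libraries labelled knockout Mmp13 led with 2860 ± 1498 per kb, and Timp2 (2525 ± 646), Timp1 (2255 ± 451) and Mmp2 (2172 ± 792) followed within their spread. Mmp9 then had 1439 ± 862 and Mmp14 817 ± 215. Mmp3 (63.6 ± 57.9 and 178 ± 94.4 per kb), Mmp11 (36.4 and 48.7), Mmp19 (24.1 and 56.8) and Mmp16 (1.20 and 3.01) were the lowest in both groups.

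Summed over the 8 metalloproteinases, the level per kb was 2753, 1000, 2837 and 1070 in the controls and 10623, 6082, 5277 and 8317 in the libraries labelled knockout. The make-up of this sum was not alike across the controls. Mmp2 made up 61.6% and 60.0% of the sum in control replicates 2 and 3 but 18.3% in control replicate 1, where Mmp9 (38.0%) and Mmp13 (34.9%) led. In the libraries labelled knockout Mmp13 made up 28.5 to 47.7%, Mmp2 16.2 to 43.7%, Mmp9 8.51 to 23.8% and Mmp14 9.91 to 12.6%.

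Within the groups, the libraries set the 10 genes apart into patterns, given here as deviations of log2 values from the group mean. Control replicate 3 was high for Mmp19 (1.73), Timp1 (1.66), Mmp3 (1.59), Mmp2 (1.31), Mmp14 (1.16) and Timp2 (0.73). The same 6 genes were below their mean in knockout replicate 3, from -1.45 for Mmp3 to -0.40 for Timp1. That was not particular to them, since Mmp16 (-0.34), Mmp13 (-0.23) and Mmp9 (-0.22) were also below their mean there, by less. Control replicate 1 was high instead for Mmp9 (2.59), Mmp16 (1.60) and Mmp13 (1.49), and knockout replicate 1 was the highest library labelled knockout for the same 3 genes (1.04, 0.58 and 0.95). Loxl2 was likewise highest among the controls in control replicate 3. Mmp11 also had its highest control there, by less (0.42). Among the libraries labelled knockout Mmp11 departed from both patterns, lowest in replicate 1 (-0.70) and highest in replicate 3 (0.35). Fibroblast marker sums were 120915 and 118678 in control replicates 1 and 3, but of the 10 markers only Col1a1 (58034 and 30458) and Col1a2 (47992 and 27263) were higher in control replicate 1, and the other 8, such as Col3a1 (5083 and 37778) and Lum (1124 and 4979), were higher in control replicate 3. The synovial lining marker sum was 14577 and 35153 and the osteoblast and osteocyte marker sum 5951 and 1886.

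**Figure D5:**
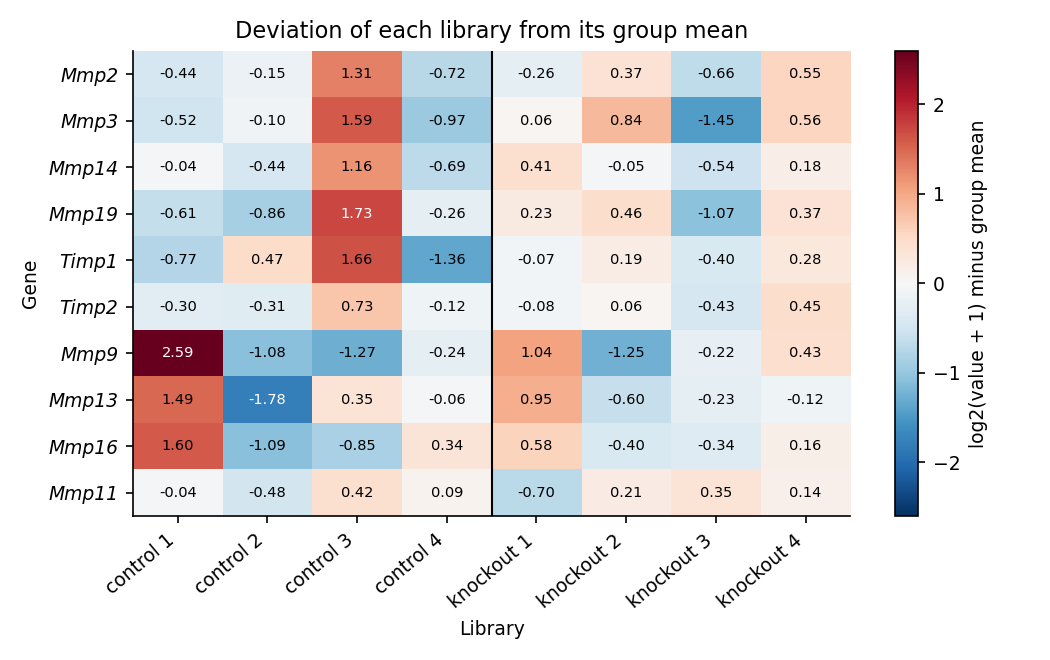
Deviation of each library from the mean of its group, in log2(value + 1), for the 10 genes, with red above and blue below the mean and each value printed. Control replicate 3 is high for the top 6 genes and control replicate 1 for Mmp9, Mmp13 and Mmp16.

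Genes most like each called member were sought by Pearson correlation of these deviations over the 8 libraries among 11645 other genes with a mean of at least 50, which describes these libraries only and draws on many candidates. The nearest to Mmp9 were the osteoclast genes Oscar (0.986) and Acp5 (0.981). Nearest to Mmp2 were Sertad4 (0.981) and the fibrillar collagen gene Col5a2 (0.980), and nearest to Timp1 the collagen VI genes Col6a1 (0.989) and Col6a2 (0.987). Mmp13 stood nearest to Syk (0.993) and Slit2 (0.989), Mmp14 to Pdia4 (0.986) and Kdm5b (0.979), and Timp2 to Dbn1 (0.990) and Pam (0.984).

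The rest of the family gave a mixed picture. Of 17 further metalloproteinase and TIMP genes, 10 were in the table and 9 were tested, of which limma called Mmp12 and Mmp23 higher and Timp4 lower. The median log2 difference of the 9 was -0.14, and 3 of them were above 0. Since the 10 were chosen with earlier results known, the contrast between them and these 9 is a description only. Mmp23, a membrane-tethered enzyme, had 115, 72.7, 108 and 58.1 normalised reads in the controls and 372, 285, 236 and 263 in the libraries labelled knockout, a rise of 1.73 (SE 0.24, limma adjusted p = 0.00397) without overlap. The log2 difference of the membrane type Mmp15 was -0.45 (SE 0.16, limma adjusted p = 0.0614) and passed without knockout replicate 3 (-0.61, 0.00634). That of Mmp28 was 0.53 (SE 0.20, limma adjusted p = 0.0795), without overlap, and passed without control replicate 3 (0.65, 0.0483). The GPI-anchored Mmp17 and Mmp25 had -0.32 (limma adjusted p = 0.533) and -0.14 (0.862).

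Other inhibitors and clearance genes were mostly higher. Of 8 on that list 5 were tested and 4 rose: Thbs2, whose protein binds MMP2 for uptake (571 ± 375 to 3955 ± 1049, log2 difference 2.94, SE 0.35, limma adjusted p = 0.00397), Lrp1, the receptor for that uptake (3647 ± 999 to 8838 ± 1797, 1.29, SE 0.20, 0.00456), Spock2 (0.80, SE 0.20, 0.0215) and the membrane-anchored inhibitor Reck (1.12, SE 0.34, 0.0411). The calls of Spock2 and Reck were lost under quantile normalisation (limma adjusted p = 0.0514 and 0.0704) and without control replicate 2 (0.0556 and 0.108), control replicate 4 (0.0523 and 0.0993), knockout replicate 1 (0.0569 and 0.0934) or knockout replicate 4 (0.0503 and 0.116), and that of Reck also without knockout replicate 2 (0.0808).

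Plasmin activates several pro-metalloproteinases. Of 6 tested genes of the plasminogen system limma called 2 higher, the activators Plat (119 ± 24.6 to 295 ± 58.5, log2 difference 1.30, SE 0.19, limma adjusted p = 0.00431) and Plau (183 ± 64.8 to 299 ± 15.2, 0.77, SE 0.21, 0.0286), and the Plau call was lost in 7 of the 8 leave-one-out fits (limma adjusted p = 0.0519 to 0.0698), the exception being that without control replicate 3. Of the proprotein convertases Furin, Pcsk5, Pcsk6 and Pcsk7, which remove the propeptides of Mmp11 and the membrane types, limma, edgeR and DESeq2 each called 0 of 4, and 1 had an unadjusted limma p under 0.05. Without control replicate 3 limma called 1, Pcsk5 (adjusted p = 0.027). Furin had 1109 ± 85.6 and 1285 ± 133 normalised reads (difference 0.21, SE 0.10, limma adjusted p = 0.14), and was called under quantile normalisation (0.33, limma adjusted p = 0.049) and when scaled without abundant genes (0.36, 0.0326).

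Receptors that induce metalloproteinases, and their surface partners, were called higher by limma for 8 of 10 genes and lower for none, with a median log2 difference of 0.84. Limma called 11.6% of all tested genes higher. By edgeR and DESeq2 the count was 7 each. The limma count was 4 without control replicate 2, 5 without control replicate 4 or knockout replicate 2 and 3 without knockout replicate 4. The smallest p-values were those of the interleukin-1 receptor Il1r1 (144 ± 39.0 to 311 ± 70.7, log2 difference 1.11, SE 0.22, limma adjusted p = 0.00915), the oncostatin M receptor Osmr (0.85, SE 0.18, 0.0109) and the integrin Itgav (0.68, SE 0.16, 0.0151). Bsg, an inducer also called EMMPRIN, and the collagen receptor Ddr1 had differences of -0.26 and -0.02, whose sign turned with scaling (0.05 for Bsg under quantile normalisation, 0.13 for Ddr1 when scaled without abundant genes), and were not called.

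Of 18 transcription factors known from metalloproteinase promoters limma called 5 higher and 0 lower, with 2 lower at an unadjusted p under 0.05 and 0 lower by edgeR or DESeq2. They were the AP-1 members Junb (387 ± 70.8 to 872 ± 138, log2 difference 1.17, SE 0.15, limma adjusted p = 0.00397), Fosl2 (439 ± 69.7 to 908 ± 210, 1.03, SE 0.17, 0.00581) and Jund (0.50, SE 0.16, 0.0433), and the RUNX factors Runx1 (286 ± 121 to 741 ± 195, 1.40, SE 0.27, 0.00911) and Runx2 (138 ± 90.5 to 410 ± 142, 1.75, SE 0.44, 0.0206). The count of 5 was 3 without control replicate 4 or knockout replicate 4. The call of Jund was lost in 7 of the 8 leave-one-out fits (limma adjusted p = 0.0523 to 0.116), the exception being that without knockout replicate 1, and that of Runx2 without control replicate 4 (0.0548), knockout replicate 1 (0.0537) or knockout replicate 4 (0.0558). Fos, Jun and Ets1 had differences of 0.45, 0.00 and 0.15 and were not called, Fos passing without knockout replicate 3 (0.64, limma adjusted p = 0.0151). Whether any of these factors acts on the promoter letters shown above was not tested.

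Further marker lists were read as measured facts beside the 10 genes, and beside the 11.6% of all tested genes that limma called higher and the 11.6% called lower. Macrophage markers were called higher for 9 of 10 genes, with sums of 2873 to 6757 in the controls and 10034 to 14267 in the libraries labelled knockout. Of 10 chondrocyte markers 1 was called higher, Hapln1, with sums of 4333 to 13300 and 10928 to 15125. Hypertrophic chondrocyte markers were higher for 2 of 5 (860 to 2453 and 2686 to 4533), osteoblast and osteocyte markers for 2 of 8 by limma and 0 by edgeR or DESeq2 (570 to 5951 and 4630 to 10189) and synovial lining markers for 1 of 6 (14577 to 35153 and 27630 to 49831). Limma called 0 of 7 endothelial, 0 of 6 erythroid, 0 of 6 adipocyte, 0 of 4 B cell and 0 of 1 keratinocyte markers tested. At an unadjusted p under 0.05 there were 5 erythroid markers, all lower, and none of the others, edgeR called none of them, and DESeq2 called 1 adipocyte marker lower. Without knockout replicate 3, limma called all 6 erythroid markers and 1 endothelial marker lower, and without control replicate 3 it called 1 erythroid marker lower. The osteoblast and osteocyte count was 5 without control replicate 1 and 0 in 5 other fits (those without control replicates 2 and 4 and knockout replicates 1, 3 and 4), the chondrocyte count was 3 without control replicate 1 and 0 without knockout replicate 4, and the macrophage count was 6 to 9 over the 8 fits. The synovial lining count was 2 without control replicate 3 or knockout replicate 3, and the hypertrophic count was 1 without control replicate 2 or 4 or knockout replicate 1. The part of these cells in the differences of the 10 genes was not tested.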

How the data were processed

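Reads were aligned to mm10 and counted with featureCounts per the labels, and HISAT2 is named in the submitters' processing notes. Versions, annotation and strand setting are not given in the sources used here. About 400 ng of RNA went into each library. The deposited values are a normalised signal, gene counts scaled by library, and per the labels' design text the authors used DESeq2. In each library 100% of values were whole multiples (tolerance 0.01) of its smallest value, which gave back the reads.

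Values were tested on log2(value + 1) with limma 3.58.1 (trend, Benjamini-Hochberg adjustment over 14949 genes) and a term for the group, and a fold on this scale understates the change of low genes. On the recovered reads edgeR 4.0.16 called 3324 genes and DESeq2 1.42.0 called 4125, against 3461 by limma. In simulated data with 193 of 14766 genes changed, the limma fit called 133 genes, 6 of them falsely. It found 32.7% of changes of log2 1 and 100% of changes of log2 2. The simulation gave every gene the same spread beyond sampling noise and changed far fewer genes than were called here. Its rates therefore need not hold for these data. Exact permutation tests were two-sided over 70 assignments. Gene coordinates, exon lengths and overlaps are from GENCODE M21. Within groups, pairs of libraries differed by more than sampling noise (chi-square over degrees of freedom 19.3 to 49.8).

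The 10 genes, lists and tests were chosen with earlier results of these data known. Named genes are the 10, tested genes of the family, at most 3 called genes of smallest p per list and the 2 genes most like each called member. Reck, Runx2, Jund, Hapln1, Col2a1, Acan and the uncalled genes of other lists were added after their values were seen. Itgb3 stood on 2 lists.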

Additional observations from a re-analysis of the deposited data

Results flagged for a closer look

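In each group of 4 libraries the gap between an extreme value and its nearest neighbour was divided by the range of the group. A share above Dixon's limit for 4 values was noted, which chance gives in about 1 of 20 independent groups of normally distributed values. For the genes the shares were taken on normalised reads, not on the log2 scale of the tests, and the groups share libraries. Of 34 groups, 6 passed, all of them controls, and this number cannot be set against 1 of 20. Control replicate 3 stood apart for Mmp2 (share 0.844, with 5742 normalised reads against 1399 to 2077), Mmp3 (0.831, 269 against 44.9 to 82.8), Mmp19 (0.897, 212 against 34.3 to 52.6), Timp2 (0.863, 7312 against 3552 to 4068) and the targeted gene Loxl2 (0.921, 1135 against 282 to 349). Control replicate 1 stood apart for Mmp9 (0.923, 3699 against 254 to 519).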

How the results depend on the processing

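Each of the 10 differences stayed above 0 under every alternative run except that of Mmp11 with the muscle score as covariate (-0.33); the cause was not tested. Signs hide sizes there: Timp2 went from 1.12 to 0.10, Mmp2 from 1.59 to 0.36, Mmp3 from 1.62 to 0.22, Mmp19 from 1.54 to 0.29, Mmp16 from 1.61 to 0.67 and Mmp9 from 2.82 to 1.74, while Mmp13 (2.93 to 2.41), Mmp14 (2.28 to 1.84) and Timp1 (2.52 to 2.38) moved by less than 1.5 times. Leaving out 1 library gave 1740 to 3832 genes called in the whole table and 4 to 8 of the 10. With the muscle score as covariate 0 genes were called (534 at an unadjusted limma p under 0.05), and 0 of the 10. Without 1 library the log2 ratio differences ran from 0.96 to 1.30 for Mmp14 to Timp2, 0.26 to 0.66 for Mmp2 to Timp2, -1.11 to -0.55 for Mmp3 to Timp1, -0.67 to 1.42 for Mmp9 to Timp1, -0.33 to 1.16 for Mmp13 to Timp1 and 0.98 to 1.71 for Timp1 to Timp2, and none passed over the 6 pairs, which at this size needs at least 4 pairs at the smallest exact p. Without control replicate 2, control replicate 4 or knockout replicate 4 the whole-table count fell to 1909, 2209 and 1740.

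Replicate numbers are shared between the groups, but same-numbered libraries did not deviate together (correlations 0.21, -0.12, -0.23 and -0.06), and only number 1 correlated best with its own number in both groups. With the replicate block 2018 genes were called, and 6 of the 10, with Mmp2 lost (limma adjusted p = 0.0604) and Mmp16 gained (0.0484). For the ratios paired in this way the smallest possible p is 0.125, so that fit could call none.

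Low reads limit Mmp16 (3 to 38 reads per library). With 4 libraries a group, a p that misses the threshold does not show that values did not differ.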
